A study of Mus musculus with 6 samples.

Results

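Genes of the feedback on ERK signalling were followed in cultured mouse colon fibroblasts: 4 dual-specificity phosphatases (Dusp1, Dusp4, Dusp5 and Dusp6), 3 Sprouty genes (Spry1, Spry2 and Spry4), 2 SPRED genes (Spred1 and Spred2) and the immediate early gene Egr1. They were chosen by symbol, as known feedback inhibitors or targets of ERK, and all 10 had a row among the 16874 genes of the deposited table and passed the filter on low values, which kept 12130 genes. The fibroblasts, connective tissue cells of the large bowel, came from C57BL/6 mice aged 12 weeks, with 3 libraries labelled WT and 3 labelled Prkcz-/-, the latter a loss of the gene for the atypical protein kinase C zeta. Both groups grew without treatment in medium with 10% fetal bovine serum, itself a source of growth factors, and were harvested near 80% confluency, 24 h after plating. Whether the 3 libraries per genotype stand for 3 mice, 3 cultures or repeat preparations is not in the labels, so p-values reflect spread among these samples alone, possibly technical. The series' design text speaks of cells with guides and gives a replicate number other than 3. The labels here name a genotype and no guide, with 3 libraries per genotype.

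ERK is the last kinase of the cascade that growth factor receptors start through RAS, RAF and MEK. Active ERK induces its own inhibitors. DUSP proteins remove the activating phosphates from ERK and related kinases, Sprouty proteins block the path from the receptor to RAS and RAF, and SPRED proteins bring the RAS inhibitor neurofibromin to the membrane. Levels of these transcripts are often read as a trace of recent ERK activity, and fibroblasts in serum are a classical system for them.

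Values are FPKM, which corrects fragment numbers for gene length and library depth. Levels, sums and shares of different genes compare only as far as the authors' gene lengths, which are not given, are right. Differences are in log2(FPKM + 0.5), libraries labelled Prkcz-/- minus WT, tested with limma across all 12130 genes, and a gene was said to rise or fall at a Benjamini-Hochberg adjusted p under 0.05. Depth was estimated at 14800000 to 16500000 reads in the WT libraries and 14900000 to 16800000 in the others. Prkcz itself went against the labels, with 0.0433, 0.144 and 0.202 FPKM in WT and 1.35, 1.32 and 1.17 FPKM in those labelled Prkcz-/-, so directions are given for the labels only. All 9 fibroblast markers reached 1 FPKM (summed level 5360 to 5650 in WT and 6880 to 7170 in the libraries labelled Prkcz-/-). Of these 9, 5 rose (Col1a1, Pdgfra, Pdgfrb, Thy1 and Vim) and 4 fell (Col1a2, Col3a1, Dcn and Lum), with Pdgfrb going from 35.0 to 99.6 FPKM and Dcn from 49.1 to 5.34 FPKM (limma adjusted p = 1.52e-08 and 1.11e-07). None of the 6 epithelial or 4 endothelial markers reached 1 FPKM in any library, and 1 of the 5 immune markers with a row did (Cd68, at 1.37 FPKM or more), with Ptprc listed at 0 in each WT library. Mesothelial markers summed to 6.46 to 7.68 FPKM in WT and to 0.772 to 1.37 FPKM in those labelled Prkcz-/-. Most of the WT sum was Msln, which fell from 5.44 to 0.131 FPKM (log2 difference -3.23, limma adjusted p = 7.85e-08). Krt19 fell from 1.45 to 0.801 FPKM with overlapping groups (limma adjusted p = 0.0318). For Wt1 every WT value was 0, the mean of the others was 0.041 FPKM, and the gene did not pass the filter. Smooth muscle markers summed to 1190 to 1310 FPKM in WT and to 1980 to 2060 FPKM in the others, almost all of it Acta2 and Cnn1, while Des and Myh11 stayed under 1 FPKM. Markers of glia and Cajal cells summed to 0.837 to 1.04 FPKM and to 1.42 to 1.64 FPKM, none of the 4 reaching 1 FPKM, with Kit listed at 0 in each WT library. The part of these marker lists in the results was not tested.

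Spry2 and Dusp4 fell about 9-fold, and the other 8 genes differed by less than 1.5-fold. At the threshold, 6 of 10 fell (Spry2, Dusp4, Dusp5, Egr1, Spry4 and Spred1), 2 rose (Dusp1 and Dusp6), and Spry1 and Spred2 did not pass. The 8 of 10 called compare with 68.7% of all genes tested (31.5% higher, 37.2% lower), so the share called says little about these genes. The 2 that fell by at least 1 in log2 compare with 3.55% of all genes, and 7.29% rose by as much against 0 of these 10. The median difference was -0.29 over the 10 genes and -0.04 over all genes tested.

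**Figure D1:**
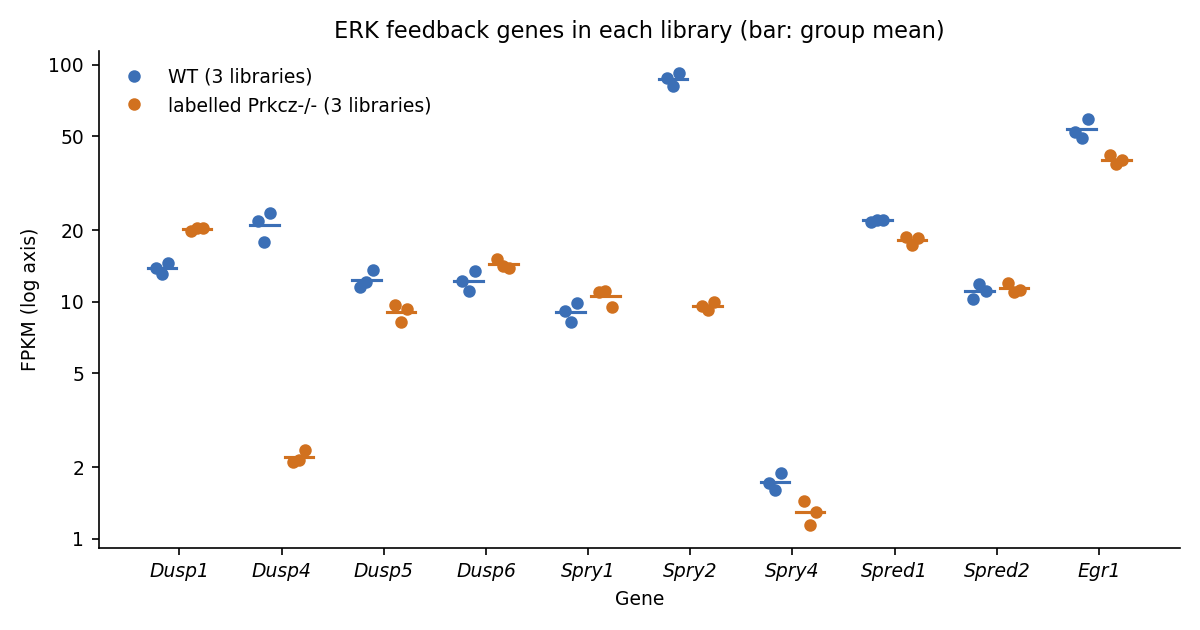
FPKM (log axis) of the 10 ERK feedback genes; each point is a library, blue for WT and orange for those labelled Prkcz-/-, and bars are group means. Spry2 dropped from 81.0 or more to 9.98 or less and Dusp4 from 17.9 or more to 2.37 or less, while the groups overlap for Spry1 and Spred2.

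Among the Sprouty genes, Spry2, an inhibitor of receptor tyrosine kinase signalling, lies on the minus strand at chr14:105891947-105896819 (mm10). It measured 88.1, 81.0 and 92.0 FPKM in WT libraries 1 to 3 and 9.62, 9.27 and 9.98 FPKM in those labelled Prkcz-/-. The lowest WT library stood far above the highest of the other group. The difference was -3.11 in log2 (SE 0.0546, limma adjusted p = 6.01e-09), the 43rd lowest of the 12130 genes. In WT its mean lay above 91.8% of all genes tested, and in the libraries labelled Prkcz-/- above 41.2%. In bulk RNA, fewer cells that express a gene and less RNA per cell cannot be told apart.

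Spry1, its close relative on chromosome 3, measured 9.14, 8.24 and 9.87 FPKM in WT and 10.98, 11.1 and 9.47 FPKM in those labelled Prkcz-/-. The groups overlapped, and the difference of 0.20 (95% interval 0.01 to 0.40) did not pass (limma adjusted p = 0.0647), though it did with median-ratio scaling (0.0348), after rescaling without short RNA genes (0.0172), and when WT replicate 3 (0.0363) or Prkcz-/- replicate 3 (0.0242) was left out. Spry4, the least abundant of the 10, measured 1.72, 1.61 and 1.89 FPKM in WT and 1.45, 1.14 and 1.29 FPKM in those labelled Prkcz-/-. It fell by 0.32 in log2 (SE 0.11, limma adjusted p = 0.0302), at roughly 91 to 147 reads a library. The Spry4 call ended after rescaling without short RNA genes (0.0744), and when WT replicate 1 (0.062), WT replicate 3 (0.0956), Prkcz-/- replicate 2 (0.0943) or Prkcz-/- replicate 3 (0.066) was left out.

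Together the Sprouty transcripts summed to 97.8 ± 6.51 FPKM in WT and 21.4 ± 0.656 FPKM in those labelled Prkcz-/- (SD, n = 3). Spry2 made up 88.9% ± 0.252 of that sum in WT and 44.9% ± 2.77 in the others, where Spry1 held 49.0% ± 3.07. The balance of the family thus went from Spry2 alone in the lead to near equal shares of Spry1 and Spry2. Spry3 had no row in the table.

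**Figure D2:**
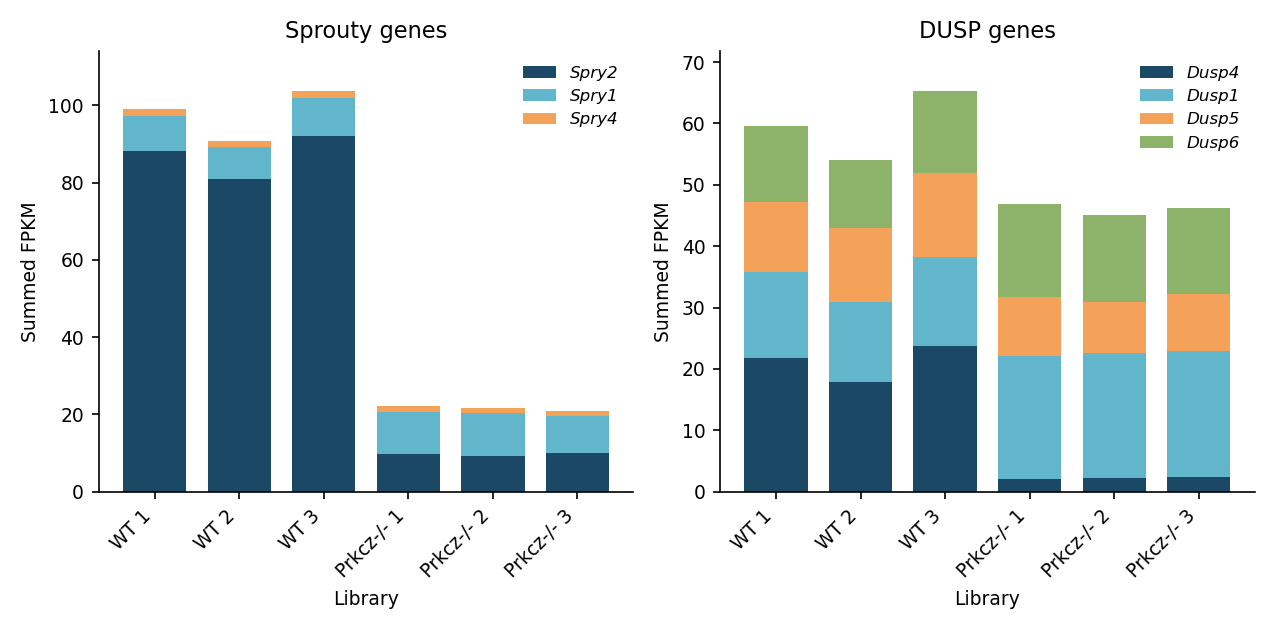
Summed FPKM of the Sprouty genes (left) and the DUSP genes (right) in each of the 6 libraries, with 1 colour a gene. The Sprouty sum goes from 90.9 FPKM or more in WT to 22.1 FPKM or less, while the DUSP sum goes from 54.1 or more to 46.9 or less as Dusp4 shrinks and Dusp1 grows.

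Among the phosphatases, Dusp4 (chr8:34807297-34819894, plus strand), a nuclear enzyme that acts on ERK and other MAP kinases, measured 21.9, 17.9 and 23.7 FPKM in WT and 2.10, 2.15 and 2.37 FPKM in those labelled Prkcz-/-. All WT libraries stood above the others. The difference was -2.99 (SE 0.104, limma adjusted p = 1.52e-07), the 49th lowest of all genes tested. The low group still rests on roughly 86 to 106 reads a library.

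Dusp5, a nuclear phosphatase selective for ERK, measured 11.5, 12.1 and 13.6 FPKM in WT and 9.68, 8.24 and 9.34 FPKM in those labelled Prkcz-/-, which lay below every WT library. It fell by 0.43 in log2 (SE 0.082, limma adjusted p = 0.00207). Dusp1, a nuclear and stress-induced phosphatase that also acts on p38 and JNK, moved the other way. It measured 13.9, 13.1 and 14.5 FPKM in WT and 19.9, 20.5 and 20.5 FPKM in those labelled Prkcz-/-, with no overlap. The rise was 0.54 in log2 (SE 0.0495, limma adjusted p = 3.19e-05).

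Dusp6, the cytoplasmic phosphatase selective for ERK, measured 12.3, 11.1 and 13.5 FPKM in WT and 15.2, 14.1 and 13.9 FPKM in those labelled Prkcz-/-. The groups lay close but apart, and the rise was 0.23 (SE 0.0732, limma adjusted p = 0.0248). That call ended without WT replicate 1 (0.0526), WT replicate 2 (0.0626) or Prkcz-/- replicate 1 (0.0847). Dusp6 and Dusp4, both known ERK-induced genes, thus did not fall together.

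The 4 phosphatases summed to 59.7 ± 5.61 FPKM in WT and 46.0 ± 0.928 FPKM in those labelled Prkcz-/- (SD, n = 3). Dusp4 held 35.4% ± 2.02 of the sum in WT, the largest share, and 4.79% ± 0.326 in the others. Dusp1 went from 23.2% ± 0.959 to 44.2% ± 1.53, and Dusp6 from 20.6% ± 0.0447 to 31.3% ± 1.1. Dusp5 kept a share near 20% (20.8% ± 1.5 and 19.7% ± 1.25).

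Ratios within a library do not depend on how libraries are scaled to each other. The pairs below were chosen after the values were seen and are given without a test. Spry2 over Spry1 was 9.63, 9.83 and 9.32 in WT and 0.876, 0.833 and 1.05 in the libraries labelled Prkcz-/-. Dusp4 over Dusp6 was 1.78, 1.61 and 1.76 in WT and 0.138, 0.152 and 0.17 in the others. By contrast Spry2 over Dusp4 was 4.03, 4.53 and 3.88 in WT and 4.58, 4.31 and 4.21 in the libraries labelled Prkcz-/-, with overlapping groups. These ratios restate the 9-fold falls of Spry2 and Dusp4 beside the smaller changes of their relatives. They are no separate evidence that the pair is linked.

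**Figure D3:**
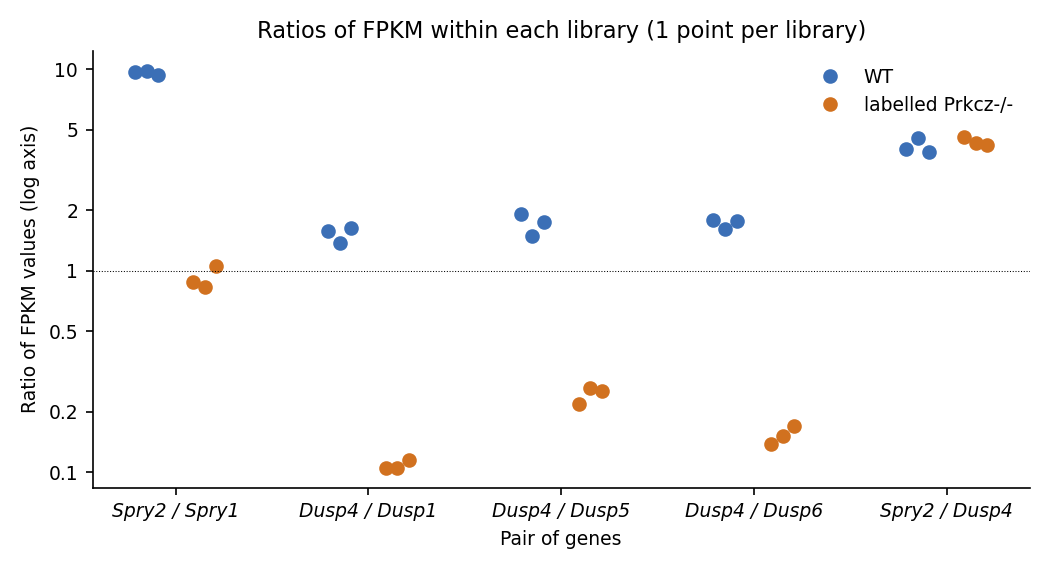
Ratios of FPKM values (log axis) between pairs of ERK feedback genes, with 1 point for each library. Spry2 over Spry1 and the Dusp4 ratios separate the groups, while Spry2 over Dusp4 lies between 3.88 and 4.58 in all 6 libraries.

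Promoter sequences are shown for the Sprouty pair that diverged and for the pair of phosphatases that moved in opposite directions. They are the 250 bases before the RefSeq start on GRCm38.p6 (mm10), 5′ to 3′ on the gene's strand, and capitals mark any match to a searched motif on either strand. Positions are chr14:105896820-105897069 (minus strand) for Spry2, chr3:37639697-37639946 (plus) for Spry1, chr17:26508473-26508722 (minus) for Dusp1 and chr19:53528895-53529144 (plus) for Dusp5.
Spry2: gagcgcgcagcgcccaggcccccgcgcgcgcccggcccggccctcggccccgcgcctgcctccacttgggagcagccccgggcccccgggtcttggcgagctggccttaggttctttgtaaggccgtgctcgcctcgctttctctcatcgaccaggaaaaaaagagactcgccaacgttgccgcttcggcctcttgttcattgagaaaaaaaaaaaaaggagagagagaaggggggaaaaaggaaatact
Spry1: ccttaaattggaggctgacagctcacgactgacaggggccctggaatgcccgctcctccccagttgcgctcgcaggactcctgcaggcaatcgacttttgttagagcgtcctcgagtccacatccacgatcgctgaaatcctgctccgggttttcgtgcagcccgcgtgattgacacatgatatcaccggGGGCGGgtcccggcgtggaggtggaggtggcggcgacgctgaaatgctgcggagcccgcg
Dusp1: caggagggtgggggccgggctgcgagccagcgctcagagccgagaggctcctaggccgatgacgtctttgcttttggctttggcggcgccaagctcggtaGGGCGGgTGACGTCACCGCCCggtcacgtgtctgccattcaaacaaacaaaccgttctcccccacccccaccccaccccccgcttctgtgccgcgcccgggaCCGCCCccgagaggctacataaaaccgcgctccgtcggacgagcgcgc
Dusp5: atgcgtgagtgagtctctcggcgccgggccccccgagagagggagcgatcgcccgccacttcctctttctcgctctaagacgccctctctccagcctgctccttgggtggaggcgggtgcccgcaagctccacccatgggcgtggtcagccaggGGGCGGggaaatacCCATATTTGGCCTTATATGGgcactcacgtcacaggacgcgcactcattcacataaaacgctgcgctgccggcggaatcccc
The motifs were the cyclic AMP response element (TGACGTCA), an ETS site (CCGGAA), an AP-1 site (TGANTCA), an EGR site (GCGNGGGCG), the GC box (GGGCGG, which can overlap the EGR site) and the CArG box bound by serum response factor. The Dusp1 window holds the full cyclic AMP response element, first base 143 bases upstream, flanked by GC boxes; 1.55% of 32851 promoters hold that element. The Dusp5 window holds CArG boxes that start 82 and 72 bases upstream, side by side, and 1.47% of promoters hold any. The Spry1 window holds a GC box (32.7% of promoters), and none of these letters is in the Spry2 window. No ETS, AP-1 or EGR match was found in the windows of the 7 genes searched (12.0%, 6.75% and 4.7% of all promoters). Egr1, Spry4 and Dusp4 were not searched. A match describes letters and is no evidence of binding.

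Spred1, which recruits neurofibromin, measured 21.8, 22.2 and 22.1 FPKM in WT and 18.8, 17.4 and 18.6 FPKM in those labelled Prkcz-/-. It fell by 0.26 in log2 (SE 0.0442, limma adjusted p = 9.57e-04), a small change against a tight WT group. Its relative Spred2 measured 10.2, 11.9 and 11.1 FPKM in WT and 11.9, 11.0 and 11.2 FPKM in those labelled Prkcz-/-. The groups overlapped, and the difference of 0.04 (95% interval -0.11 to 0.19, limma adjusted p = 0.591) did not pass. The third family member, Spred3, fell from 5.37 ± 0.22 to 3.01 ± 0.0312 FPKM (SD, n = 3; limma adjusted p = 2.68e-05). Nf1, which encodes neurofibromin, was chosen after its values were seen and rose from 9.41 to 13.5 FPKM (limma adjusted p = 3.02e-04).

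Egr1, a zinc finger transcription factor induced within minutes by ERK through serum response factor, measured 51.9, 49.1 and 59.1 FPKM in WT and 41.6, 38.2 and 39.6 FPKM in those labelled Prkcz-/-. Every WT library was above the others, and Egr1 fell by 0.42 in log2 (SE 0.0687, limma adjusted p = 9.11e-04). Other immediate early genes mostly went the other way. Of 20 listed and tested, 16 rose, 1 fell and 3 did not pass, with a median of 0.69 beside -0.04 for all genes. Called genes made up 85.0% of the list, beside 68.7% of all genes tested (31.5% higher, 37.2% lower). Ctgf rose from 55.0 to 366 FPKM, Cyr61 from 123 to 238 FPKM, Jun from 19.6 to 53.3 FPKM and Klf6 from 27.0 to 43.2 FPKM (limma adjusted p of 4.16e-05 or less). The Egr1 relatives Egr2 and Egr3, chosen after their values were seen, rose from 1.65 to 2.72 and from 1.62 to 2.35 FPKM (limma adjusted p = 0.00271 and 0.013). Without WT replicate 2, or with library weights, 2 fell. The gene that fell with all libraries was Nr4a2, an orphan nuclear receptor named after its values were seen, from 11.4 ± 0.389 to 1.12 ± 0.237 FPKM (SD, n = 3; limma adjusted p = 2.86e-07). Immediate early genes also respond to handling, and its part here was not tested.

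In the order of levels, WT ran Spry2, Egr1, Spred1, Dusp4, Dusp1, Dusp5, Dusp6, Spred2, Spry1 and Spry4. Library ranges overlapped between Spred1 and Dusp4 and between neighbours from Dusp1 to Spred2. In the libraries labelled Prkcz-/- the order was Egr1, Dusp1, Spred1, Dusp6, Spred2, Spry1, Spry2, Dusp5, Dusp4 and Spry4, with overlap between neighbours from Spred2 to Dusp5. Spry2 went from rank 1 to rank 7 and Dusp4 from rank 4 to rank 9.

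**Figure D4:**
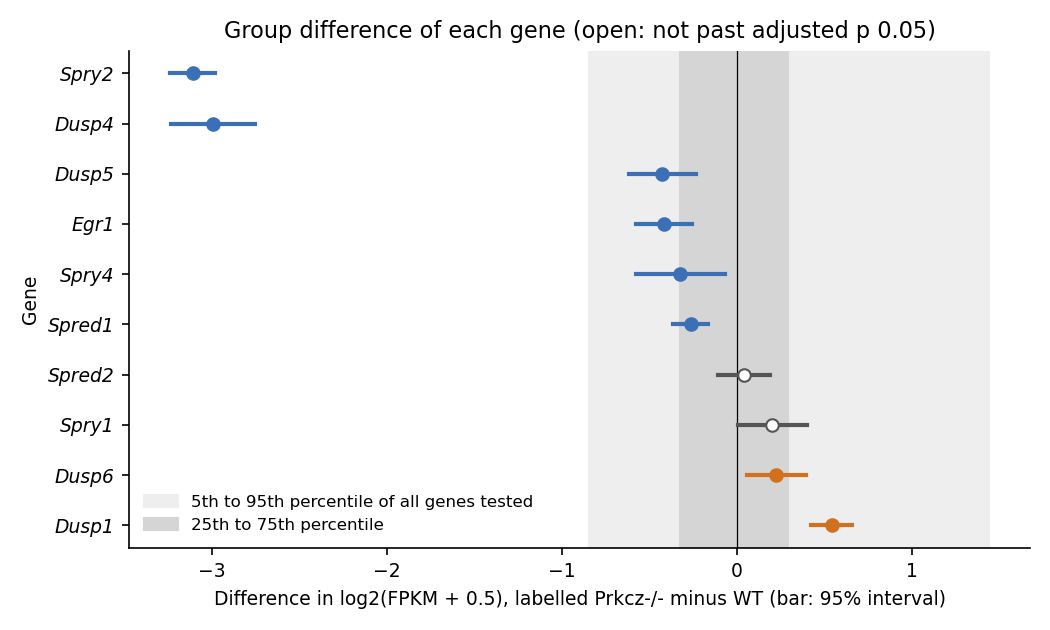
Difference in log2(FPKM + 0.5) between the libraries labelled Prkcz-/- and WT, with 95% intervals; open points did not pass the threshold, and grey bands give percentiles of all genes tested. Spry2 (-3.11) and Dusp4 (-2.99) lie far below the 5th percentile of all genes (-0.84), and the other 8 lie between -0.43 and 0.54.

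Within WT, 7 of the 10 genes (Dusp1, Dusp4, Dusp6, Spry1, Spry2, Spry4 and Egr1) were lowest in library 2 and highest in library 3, an order seen in 14.3% of all genes tested. Spred1, Spred2 and Dusp5 did not share that order. Library 2 had the lowest estimated depth in WT (14800000 reads) but the highest in the libraries labelled Prkcz-/- (16800000 reads). In the libraries labelled Prkcz-/-, 5 genes (Dusp5, Spry4, Spred1, Spred2 and Egr1) were lowest in library 2 and highest in library 1 (16.1% of all genes tested), and the other 5 were spread over 4 orders. These genes are not independent of each other, and no test was made.

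Other DUSP genes were also divided. Of 10 tested, 3 rose, 5 fell and 2 did not pass (median -0.21, and between -0.253 and -0.094 over the other settings). The 80.0% called compare with 68.7% of all genes tested (31.5% higher, 37.2% lower). Dusp10, which acts on JNK and p38, rose from 9.59 ± 0.531 to 24.8 ± 0.658 FPKM (SD, n = 3; limma adjusted p = 2.89e-07). Dusp7, a cytoplasmic relative of Dusp6, rose from 9.26 ± 0.872 to 17.2 ± 0.943 FPKM (limma adjusted p = 2.52e-05). Dusp3 and Dusp14 fell from 17.1 to 12.3 and from 19.6 to 13.6 FPKM (limma adjusted p = 5.58e-05 and 4.71e-04).

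Among other genes known to be induced by ERK, 3 of 14 rose, 6 fell and 5 did not pass (64.3% called, beside 68.7% of all genes tested). The median of this list was -0.20. That median was -0.326 without WT replicate 2, -0.134 without WT replicate 3 and -0.123 after rescaling without short RNA genes. Ccnd1, the G1 cyclin, fell from 38.2 to 20.9 FPKM and Phlda1 from 31.9 to 23.8 FPKM (limma adjusted p = 2.57e-05 and 6.94e-05). Myc rose from 19.2 to 43.3 FPKM and Mcl1, a survival factor, from 61.0 to 75.1 FPKM (limma adjusted p = 9.1e-06 and 1.9e-04). The ETS factors Etv4 and Etv5, which growth factor signals induce along with Spry2 and Dusp4, were chosen after their values were seen. Etv4 measured 11.2, 9.65 and 11.6 FPKM in WT and 2.01, 1.67 and 1.59 FPKM in those labelled Prkcz-/- (limma adjusted p = 4.92e-07). Etv5 measured 6.14, 5.71 and 6.28 FPKM in WT and 2.68, 1.64 and 2.49 FPKM in the others (limma adjusted p = 1.21e-04). Both fell with no overlap, by 2.32 and 1.26 in log2. Etv1, the remaining Etv gene of the list and also named after its values were seen, did not pass. It went from 0.432 to 0.582 FPKM with overlapping groups (limma adjusted p = 0.252).

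**Figure D5:**
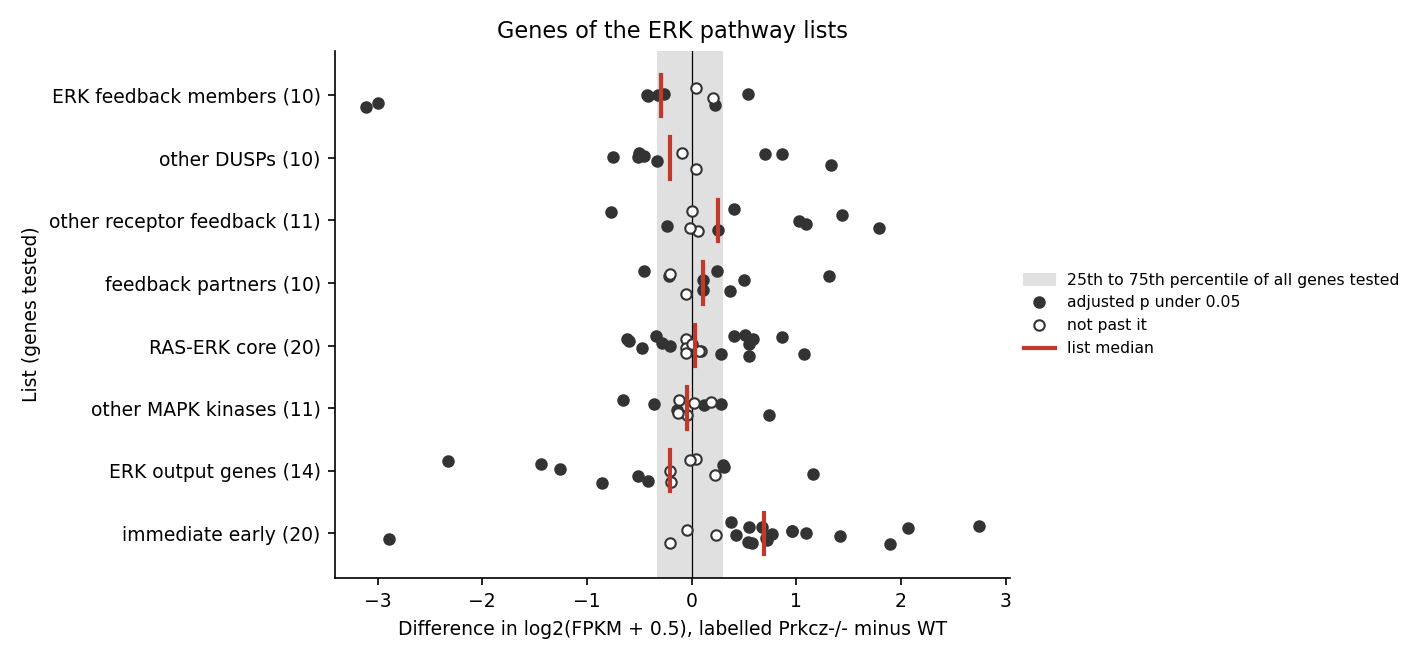
Difference in log2(FPKM + 0.5) of each tested gene in 8 lists around the ERK pathway, labelled Prkcz-/- minus WT; filled points passed the threshold, red bars are list medians and the grey band is the 25th to 75th percentile of all genes. The immediate early list has its median at 0.69 and Nr4a2 at -2.89, while the RAS-ERK core has its median at 0.03.

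The RAS to ERK chain itself had 8 of 20 genes higher, 6 lower and 6 not past the threshold. With 70.0% called, it was close to the 68.7% of all genes tested (31.5% higher, 37.2% lower). Its median was 0.03, and between 0.005 and 0.113 over the other settings (lowest without Prkcz-/- replicate 1, and 0.064 without Prkcz-/- replicate 2). Mapk3, which encodes ERK1, measured 89.5 and 93.7 FPKM, and Map2k2, a MEK gene, 61.8 and 65.7 FPKM; neither passed (limma adjusted p = 0.129 and 0.0716). The RAS relative Rras rose from 60.7 to 73.8 FPKM (limma adjusted p = 0.00164). In the list of other MAP kinase genes 3 of 11 rose and 3 fell (54.5% called, beside 68.7% of all genes tested). Its median was -0.05, which turned to 0.001, 0.034 and 0.049 under the 3 other scalings. It was -0.013 without WT replicate 1 and -0.026 without Prkcz-/- replicate 1. Mapk14, which encodes p38 alpha, fell from 38.3 to 24.1 FPKM and Mapkapk2, a p38 substrate, from 74.3 to 67.2 FPKM (limma adjusted p = 1.43e-06 and 0.0103). Map2k4 rose from 27.3 to 29.7 FPKM (limma adjusted p = 0.0309), and Map2k3 measured 48.2 and 46.6 FPKM without passing (limma adjusted p = 0.341).

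A list of further regulators of receptor signalling had 6 of 11 higher, 2 lower and 3 not past the threshold (median 0.25, and 0.157 with no filter on low values). The 72.7% called compare with 68.7% of all genes tested. The number lower was 1 without WT replicate 1, WT replicate 3 or any single library labelled Prkcz-/-, with the replicate block, with median-ratio scaling and after rescaling without short RNA genes. Dok1, an adaptor that attracts a RAS inhibitor, rose from 23.3 to 50.1 FPKM and the pseudokinase gene Peak1 from 20.9 to 24.97 FPKM (limma adjusted p = 5.71e-06 and 0.00215). Lrig1 and Errfi1, inhibitors of the EGF receptor, measured 22.3 and 22.0 and 19.1 and 19.96 FPKM in the respective groups (limma adjusted p = 0.777 and 0.333). Il17rd, a membrane inhibitor of FGF signalling also called Sef, was chosen after its values were seen and rose from 2.30 ± 0.0262 to 9.14 ± 0.154 FPKM (SD, n = 3; limma adjusted p = 1.21e-07). Among binding partners of the feedback proteins 6 of 10 rose and 2 fell (median 0.11, and between 0.094 and 0.192 over the other settings). The number that rose was 4 without Prkcz-/- replicate 1 or Prkcz-/- replicate 2. It was 5 with quantile normalization, with no variance trend or without WT replicate 3. Without WT replicate 1, 3 fell. At 80.0% called, this list stands beside 68.7% of all genes tested. Among the most abundant, Grb2, the adaptor that Sprouty competes for, rose from 38.4 to 45.6 FPKM. Cav1 rose from 172 to 186 FPKM and Ppp2ca from 175 to 189 FPKM. Ppp2r1a fell from 137 to 100.1 FPKM (log2 difference -0.45, limma adjusted p = 1.26e-05).

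The exact permutation test over libraries gave p = 0.1 for 8 genes, which is its floor with 3 libraries a side, and 0.2 for Spry1 and 0.6 for Spred2. The groups did not overlap for those 8, beside 72.7% of all genes tested. Dusp1 shares 11 exonic bases with Ergic1 on the opposite strand (76.6 FPKM in WT, 61.4 FPKM in those labelled Prkcz-/-). Opposite-strand gene models without a row in the table share 547 exonic bases with Dusp5 and 710 with Spry1, so those levels are uncertain if reads were counted without regard to strand.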

How the data were processed

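RNA of colon fibroblasts was sequenced as 6 libraries, 3 for each labelled genotype. Per the labels' protocols, polyadenylated RNA was made into directional libraries and read from a single end. The authors deposited FPKM values for 16874 genes. Per the submitters' processing notes, STAR and DESeq2 were used with mm10. Not given in the sources used here: tool roles, the counting program, its strand setting and gene lengths.

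Since FPKM is a normalized unit, count models were left out. The 12130 genes averaging 0.5 FPKM or more across all 6 libraries were compared as log2(FPKM + 0.5) with limma 3.58.1 in R 4.3.3 (lmFit, eBayes with a variance trend), two-sided, with Benjamini-Hochberg adjustment over all of them; the fit was tested on simulated data. The log2(FPKM + 0.5) scale understates changes of low genes. The genes and lists were chosen with earlier results of these data known. From each list the 4 genes with the highest mean FPKM are named, except 1 that is not reported here, and any further gene is said to have been picked with its values in view.

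Depth was estimated from the lowest values of genes with 1 annotated transcript in GENCODE M21. The depth that made the largest share of them whole was taken (tolerance 0.03). At that depth 16.0% to 21.5% were whole, beside 4.47% to 4.99% at the median of the depths tried, so the read numbers are approximate. The depth covers counting error only. Alternatives changed the pseudocount, the filter, the scaling, the threshold or the variance model. Others weighted libraries, added a replicate block, or left out 1 library at a time. Rescaling without short RNA genes was added after seeing the data. It scaled each library by its FPKM sum outside those genes and took no gene out of the test. Promoters were matched by symbol to RefSeq, and 7 of the 10 genes were searched. Spry4 and Egr1, both on chromosome 18, were left out of the search, and Dusp4 had no sequence.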

Additional observations from a re-analysis of the deposited data

How the results depend on the processing

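Over 16 other settings (other pseudocounts, filters, scalings, variance model, library weights, the replicate block and each library left out), Spry2 kept its direction and call between -3.16 and -3.03 in log2, Dusp4 between -3.20 and -2.78, Dusp1 between 0.50 and 0.62, Dusp5 between -0.48 and -0.35, Egr1 between -0.47 and -0.33 and Spred1 between -0.29 and -0.18. Leaving out 1 library moved the count of feedback genes that rose between 1 and 3 (2 with all libraries) as Dusp6 or Spry1 crossed the threshold, and the count that fell between 5 and 6; 1 rose without WT replicate 1, WT replicate 2 or Prkcz-/- replicate 1. At an adjusted p under 0.01, 1 rose. With a log2 difference of at least 1 as well, 0 rose and 2 fell, beside 884 higher and 431 lower of all genes. Spred2, not called in any of the 16 settings, ranged from -0.0109 without WT replicate 1, where its sign turned, to 0.12 after rescaling without short RNA genes (0.0897 without WT replicate 2); the cause was not tested. At a filter of 2 FPKM Spry4 was not tested.

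The balance of all genes moved with the scaling. It went from 3825 higher and 4511 lower to 4211 and 4015 with median-ratio scaling. Setting equal FPKM sums outside short RNA genes gave 4418 and 3659, with all 12130 genes still tested. Quantile normalization went the other way, to 3665 and 4754. The deposited FPKM sums were 459388 to 486793 in WT and 441972 to 442730 in the libraries labelled Prkcz-/-. No pairing by replicate number was seen. Deviations of same-numbered libraries correlated at 0.0599, 0.0148 and 0.00827 across genes, and those of differently numbered libraries at -0.0747 to 0.0615. Such values do not settle whether same-numbered libraries were prepared together. With the replicate block 2 feedback genes rose and 6 fell, as without it, and 3718 genes were higher and 4375 lower. Counting precision limits Spry4 and, in the libraries labelled Prkcz-/-, Dusp4, at roughly 86 to 147 reads.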
